A study of Mus musculus with 2 samples.

Results

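Hddc3, AI506816, Gm3839 and Gm35082 are 4 of the 32285 genes counted in cells of the fetal liver of IκBα WT and IκBα KO mouse embryos. They were picked because the KO library differed from the WT library in 1 direction in every cell class examined, so the KO/WT ratios given here describe how the genes were picked and were not tested. IκBα, encoded by Nfkbia, is the inhibitor that holds NF-κB dimers in the cytoplasm. The WT library came from a pool of 2 IκBα WT embryos and the KO library from a pool of 3 IκBα KO embryos, all at E14.5 and on the CD1 strain, an outbred stock in which littermates carry different alleles at many loci. In both, lineage-depleted cells were sorted for the LSK population (lineage-negative, SCA1-positive and cKIT-positive progenitors) and sequenced from the 3′ end of the RNA, and the question was how loss of IκBα alters these progenitors. Each genotype was 1 library, so genotype, pool and library cannot be told apart, and no p-value was computed.

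The 4 genes are unlike each other. Hddc3 encodes MESH1, an HD-domain hydrolase related to bacterial enzymes that degrade the alarmone ppGpp, and in mammalian cells it removes a phosphate from NADPH, the electron donor for reductive synthesis and for the repair of oxidised molecules. Gm3839 is a copy of Gapdh, the glycolytic enzyme glyceraldehyde-3-phosphate dehydrogenase, that arose by insertion of a reverse-transcribed messenger RNA. AI506816 and Gm35082 are annotated as noncoding RNAs. In the mouse build GRCm38, Hddc3 (ENSMUSG00000030532) lies on the plus strand at chr7:80343104-80350547 and Gm35082 (ENSMUSG00000108866, lincRNA) on the same strand at chr7:100675088-100677760, 20.3 megabases away. AI506816 (ENSMUSG00000105987, processed transcript) lies on the minus strand at chr5:23698296-23712667 and Gm3839 (ENSMUSG00000097148, annotated as protein-coding) on the minus strand at chr14:11280735-11356726. None of them lies on chromosome 12, which carries Nfkbia.

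The region around the start of transcription is shown for the 3 members that the RefSeq table of promoters (GRCm38.p6) holds, because the deleted gene controls DNA-binding proteins. Each window runs from 250 bases before to 50 bases after the start, and capitals mark a match to GGGNNNNNCC on either strand, a loose form of the site bound by NF-κB. The windows are chr7:80342887-80343186 on the plus strand for Hddc3, chr5:23712618-23712917 on the minus strand for AI506816 and chr7:100674757-100675056 on the plus strand for the first of 3 entries of Gm35082.
Hddc3: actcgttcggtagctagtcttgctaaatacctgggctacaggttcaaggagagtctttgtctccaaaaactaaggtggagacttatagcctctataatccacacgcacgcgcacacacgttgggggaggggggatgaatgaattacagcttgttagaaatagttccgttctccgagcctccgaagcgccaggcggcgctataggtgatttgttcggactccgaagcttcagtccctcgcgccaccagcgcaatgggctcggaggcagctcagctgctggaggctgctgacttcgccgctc
AI506816: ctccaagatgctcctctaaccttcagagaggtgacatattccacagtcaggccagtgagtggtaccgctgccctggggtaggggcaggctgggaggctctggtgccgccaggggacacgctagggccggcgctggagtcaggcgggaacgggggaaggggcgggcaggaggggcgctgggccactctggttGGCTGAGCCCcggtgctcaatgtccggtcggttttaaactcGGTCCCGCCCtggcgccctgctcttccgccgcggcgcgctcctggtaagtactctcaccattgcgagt
Gm35082: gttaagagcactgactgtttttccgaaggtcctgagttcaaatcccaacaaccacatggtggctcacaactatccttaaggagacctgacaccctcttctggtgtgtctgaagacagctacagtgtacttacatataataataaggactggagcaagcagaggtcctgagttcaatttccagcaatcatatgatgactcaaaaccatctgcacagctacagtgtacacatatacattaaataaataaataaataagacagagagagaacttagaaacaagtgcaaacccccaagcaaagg
The AI506816 window held 2 matches, starting 59 and 18 bases before the start site, and the windows of Hddc3 and Gm35082 held 0. The motif was present in 50.8% of the 32851 promoter windows of the same length. The narrower form GGGANTTTCC was present in 0.411% of them, among them that of Nfkbia, and in 0 of the windows of these members.

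Gm3839 is shown beside Gapdh because short reads of the pair are hard to tell apart. Their transcripts aligned over 1232 bases with 99.1% identity, 9 substitutions and 2 gap positions. The last 139 aligned bases were identical, and 3 of the substitutions lay in the last 500. The gap positions were numbers 140 and 141 from the 3′ end, nearer to it than any substitution. The substitution nearest to that end is C1258T, counted from 1 at the 5′ end of the Gapdh transcript with the Gapdh base first, and it is in capitals here.
Gapdh: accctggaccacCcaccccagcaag
Gm3839: accctggaccacTcaccccagcaag
UMIs of Gm3839 may therefore include reads of Gapdh or of other Gapdh copies, and its values are uncertain in this respect. AI506816 shared 347 aligned bases (95.4% identical) with 2700038G22Rik, another noncoding RNA, and the alignment covered the whole annotated AI506816 transcript of 345 bases, so that any of its reads may also be shared.

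After filtering, 3458 WT cells (median 28065 UMIs, molecules counted once each by their unique molecular identifier) and 4417 KO cells (median 19560 UMIs) remained, and 6 kept barcodes occurred in both libraries. Nfkbia had 1478 UMIs in WT cells and 7 in KO cells. Cells were placed in a class when enough of its marker genes were detected. Only 15.3% of WT and 9.01% of KO cells fell in the stem cell class alone, which required 4 of 8 markers. The erythroid class alone held 45.9% and 49.8%, although the labels name LSK cells or LT-HSCs. A further 8.44% and 8.51% met several requirements and were left out of the classes. Markers were counted without equal depth (stem cell class median 17731.5 UMIs in WT and 12245.5 in KO), so these shares do not compare the genotypes. The sort should also leave out macrophages, endothelium and hepatocytes, and these classes held 22 to 67 cells in each library.

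Over all kept cells, Hddc3 had 987 UMIs in the WT library, or 9.11 CPM (UMIs scaled to a total of 1000000 per library), and 2018 in the KO library, or 20.4 CPM. The log2 KO/WT was 1.16 (1.05 to 1.27, 95% interval of counting error only, as for all intervals here). Gm35082 had 159 UMIs (1.47 CPM) in WT and 771 (7.78 CPM) in KO, a log2 ratio of 2.41 (2.16 to 2.66). Gm35082 thus had the largest ratio of the 4 members. Gm3839 had 630 UMIs (5.82 CPM) in WT and 1059 (10.7 CPM) in KO, a log2 ratio of 0.88 (0.73 to 1.02). AI506816 was the only member lower in the KO library, with 8078 UMIs (74.6 CPM) in WT and 3598 (36.3 CPM) in KO and a log2 ratio of -1.04 (-1.10 to -0.98). Of the 11522 genes with at least 200 UMIs, 2.88% were higher in KO by a log2 of 0.5 or more and 0.981% were lower by as much. Since the members were picked on this contrast, nothing follows from their place among these genes.

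The direction was the same in 9 of 9 classes for each member when all cells of a library were summed, which did not hold against 1 group of the WT cells described further on. The same held for 1.20% (upward) and 1.67% (downward) of the 4678 genes with at least 20 UMIs in each class, a requirement that Hddc3 alone of the members met. Over the 5 blood progenitor classes (stem, lymphoid, neutrophil, monocyte and dendritic, erythroid), 7935 genes could be counted, among them Hddc3, AI506816 and Gm3839. Of these genes 7.16% were higher and 5.76% lower in KO in all 5 classes, or 0.252% and 0.328% when a log2 of 0.5 over all cells was required as well. Hddc3 was the most even of the 4. Its lowest log2 KO/WT was 0.85 in hepatocytes (13 and 26 UMIs), its median was 1.24, and its highest was 1.53 in lymphoid cells (17 and 37 UMIs). In the stem cell class it stood at 14.6 CPM in WT and 27.3 in KO, and in the erythroid class at 7.35 and 16.0. The intervals excluded 0 in 7 of 9 classes, the exceptions being hepatocytes and endothelium, where Hddc3 had 5 and 16 UMIs.

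AI506816 ranged in log2 KO/WT from -1.47 in megakaryocytes (72.4 CPM in WT, 26.1 in KO) to -0.54 in endothelium (10.1 and 6.93 CPM). The endothelial value rested on 5 and 4 UMIs and its interval reached from -2.87 to 1.68. With 1 more marker required per class it became 0.80 (-0.84 to 2.68), which reversed its sign. The blood cell classes held AI506816 at 62.5 to 96.2 CPM in WT, and hepatocytes at 25.1 CPM in WT and 9.82 in KO. It was therefore a transcript mainly of blood cells here, at lower levels in endothelium and hepatocytes of both libraries.

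Gm3839 had log2 KO/WT between 0.23 in lymphoid cells (17 and 15 UMIs) and 2.17 in megakaryocytes (3 and 25 UMIs), and its interval excluded 0 in 5 of 9 classes. The lymphoid value is the one nearest to the border of the rule, and it became -0.77 (-2.62 to 0.80) with 1 more marker required. Gm35082 was not seen in WT cells of 4 classes. In monocyte and dendritic cells the KO library held 6 UMIs and in megakaryocytes 12. These KO levels were higher by a log2 of 1.79 and 1.11 than the level that 3 UMIs in WT would give, without counting error. The lower limits of the log2 KO/WT with counting error were 1.02 and 0.59. In endothelium (4 UMIs in KO) the value against 3 UMIs in WT was 0.20, with a lower limit of -0.81, and in hepatocytes (2 UMIs) no ratio was given. Where both libraries had UMIs, the log2 ratio of Gm35082 ran from 1.41 in macrophages (1 and 4 UMIs, interval -1.93 to 7.03) to 3.56 in stem cells (9 and 56 UMIs, 2.53 to 4.76). The pattern was not particular to the members. Among 6 other genes named by an earlier analysis of these data, Gm12166, Lbp, Dynlt1a and Hist1h2ad also had 1 direction in 9 of 9 classes. Just outside the rule lay Smim6, with 7 of 9 classes in its overall direction and 1 opposite, and Rps6ka1, with 7 and 2.

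**Figure D1:**
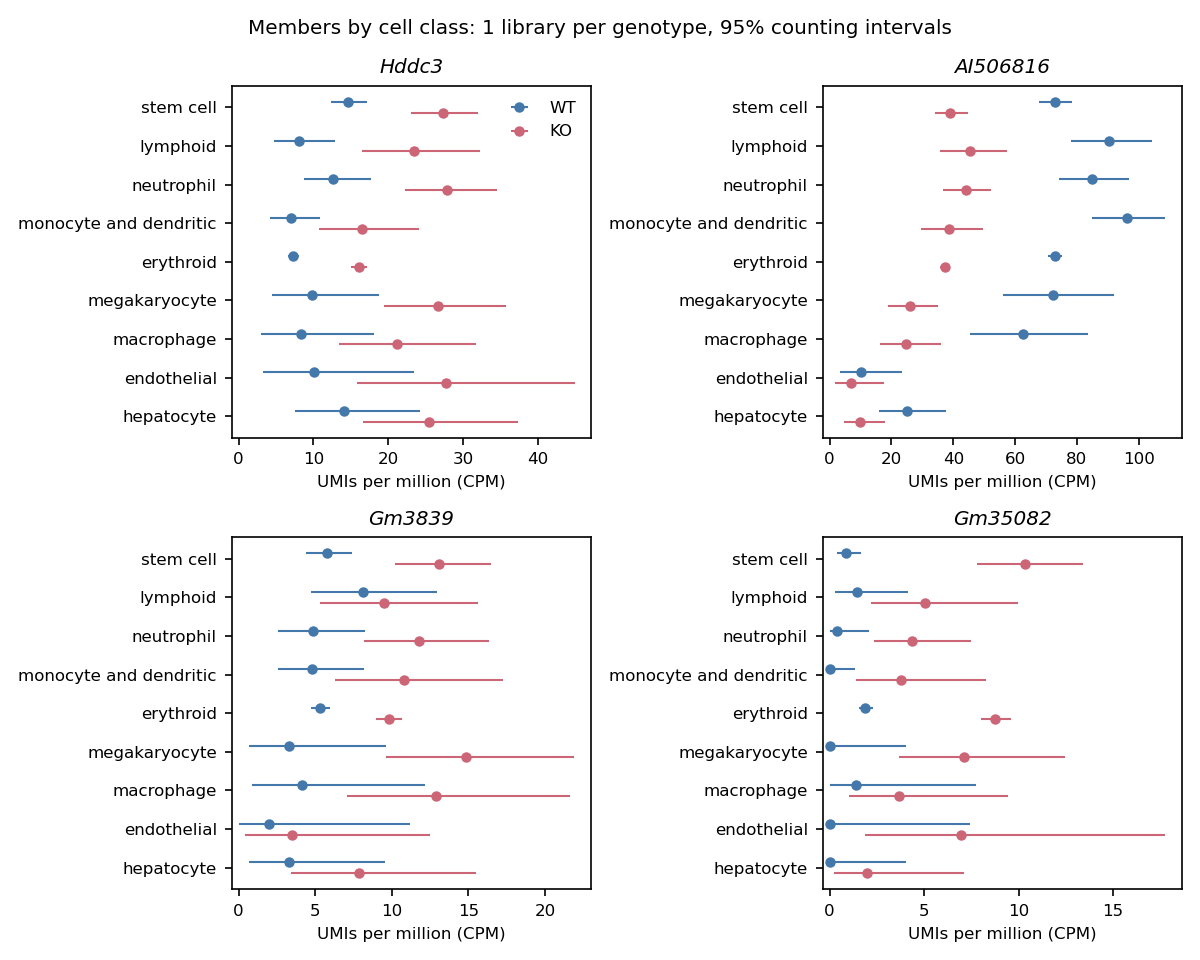
CPM (x axis) of each member in the 9 cell classes (y axis), with the WT library in blue, the KO library in red and 95% Poisson counting intervals as bars. The KO point lies right of the WT point in 9 of 9 classes for Hddc3, Gm3839 and Gm35082 and left of it in 9 of 9 for AI506816, with overlapping intervals in the classes of few UMIs.

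Depth differed between the libraries, so the share of cells with a UMI was compared after every cell was thinned to 10000 UMIs. Hddc3 was then detected in 9.05% of 3247 WT cells (8.09 to 10.1) and 16.7% of 3845 KO cells (15.6 to 18.0). AI506816 was detected in 38.0% and 25.9%, Gm3839 in 5.33% and 9.73%, and Gm35082 in 1.39% and 6.68%. The shares moved in the same direction as the CPM for each member, and 211 WT and 572 KO cells were too shallow to enter. Without thinning the shares were 21.7% and 30.4% for Hddc3, 60.4% and 42.4% for AI506816, 15.5% and 19.6% for Gm3839, and 3.04% and 12.7% for Gm35082. Free RNA can add UMIs to any cell, and no class known to lack these genes was at hand to measure it.

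Hddc3, AI506816 and Gm35082 varied over the cells of a library more than most genes. Beyond the Poisson variance that depth and class give, the squared coefficient of variation was 0.77 for Hddc3, 0.96 for AI506816, 0.21 for Gm3839 and 11.9 for Gm35082 in WT, against a median of 0.20 over 10430 genes. In KO the values were 0.44, 0.49, 0.25 and 1.94, against a median of 0.19 over 10324 genes. Gm3839 varied about as much as the median gene, whereas the other 3 varied more. In the KO library, Gm35082 was detected in 10.6% (8.29 to 13.2) of the thinned cells with a UMI of Hddc3 and in 5.90% (5.11 to 6.78) of those without. In WT the shares were 1.36% (0.372 to 3.45) and 1.39% (0.998 to 1.88).

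Cells within each library could be divided by genes other than the members. The division was noticed because Rpl29, a protein of the large ribosomal subunit, and Gm10260, a near-identical copy of the ribosomal protein gene Rps18 (99.1% identical over 545 bases), ran against Hddc3 and Gm35082 in WT erythroid cells. It was thus chosen after the data had been seen, and the member values across it are a description. In WT, 1010 cells had fewer than 3 Rpl29 UMIs per 10000, 2400 had more than 5, and only 48 lay between. In 94.1% of the Rpl29-low cells Gm10260 was not detected, against 3.54% of the Rpl29-high cells. In KO, 2.20% of cells were Rpl29-low, but Gm10260 divided the female cells (those expressing Xist but no Y-linked gene) into 1388 negative cells, each of at least 10000 UMIs, and 1145 positive cells (above 0.7 per 10000). This division had no gap at its limit: 272 of the 2679 female KO cells of at least 10000 UMIs (10.2%) had Gm10260 at or under 0.7 per 10000 without being negative, and 1114 KO cells (25.2%) were in no group. A further 770 KO cells were male, with Y-linked UMIs and without Xist, while WT had 4 such cells. The number of these groups, 2 in WT and 3 in KO, equals the number of pooled embryos. That number follows from limits set after the data had been seen, with different genes in each library. Whether each group is 1 embryo was not tested. Each division ran through the 9 classes: Rpl29-low cells made up 15.3% to 44.0% of the WT cells of a class, and Gm10260-negative cells 51.5% to 72.7% of the deep female KO cells.

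**Figure D2:**
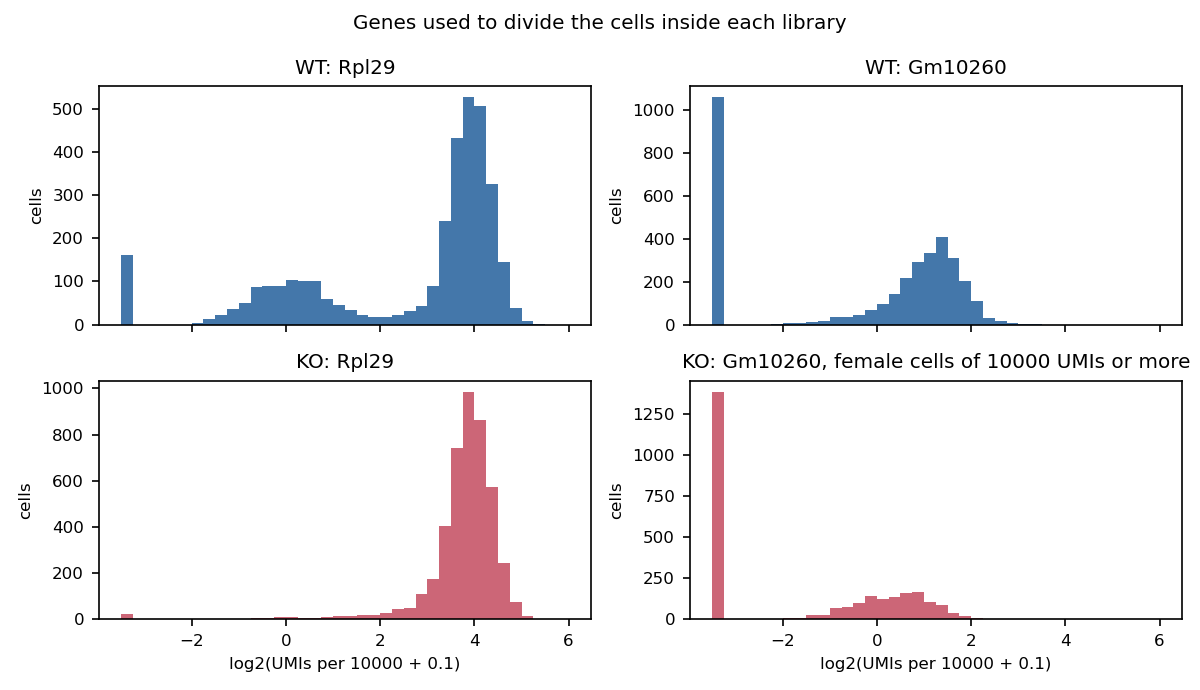
Numbers of cells (y axis) by Rpl29 or Gm10260 level on the scale log2(UMIs per 10000 + 0.1) (x axis), for the WT library (blue) and the KO library (red, Gm10260 in female cells of at least 10000 UMIs only). WT falls into 1010 Rpl29-low and 2400 Rpl29-high cells and female KO cells into 1388 without and 1145 above 0.7 per 10000 of Gm10260, with no gap below that limit, whereas Rpl29 has a single main peak in KO; the leftmost bar holds cells with 0 UMIs.

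Hddc3 differed more inside the libraries than between them. It stood at 5.0 CPM in Rpl29-high and 19.6 in Rpl29-low WT cells, and at 5.91 in Gm10260-negative female, 35.4 in Gm10260-positive female and 19.3 in male KO cells. The lowest KO group was thus level with the lower WT group, and the male KO cells were level with the higher WT group. The log2 difference was 1.97 (1.78 to 2.16) between the WT groups and 2.58 (2.35 to 2.82) between the female KO groups, both larger than the KO/WT value of 1.16. A log2 difference of at least 1 was found for 1.71% of 10410 genes between the WT groups and for 0.247% of 9295 genes between the female KO groups. In the stem cell class Hddc3 was at 9.59 and 39.1 CPM in the WT groups and at 13.4, 49.1 and 29.5 CPM in the KO groups, in the same order.

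Gm35082 differed between the same groups as Hddc3. Its level was 0.297 CPM in Rpl29-high WT cells (23 UMIs) and 4.52 in Rpl29-low WT cells (134 UMIs). In KO it was 1.82 CPM in Gm10260-negative female, 16.7 in Gm10260-positive female and 4.85 in male cells. The intervals of the Rpl29-low WT cells (3.79 to 5.35) and of the male KO cells (3.87 to 6.01) overlapped. Between the WT groups the log2 difference was 3.93 (3.28 to 4.63), and between the female KO groups 3.2 (2.80 to 3.63). Hddc3 and Gm35082 were higher in Rpl29-low WT cells in 3 of 3 classes with at least 20 cells in both groups, and higher in Gm10260-positive female KO cells in 4 of 4. The relation to Gm10260 was thus opposite in the libraries, since 94.1% of the Rpl29-low WT cells had no UMI of Gm10260. Only 4.29% of the male KO cells had none. The direction in WT erythroid cells was set by the choice of the genes, which were noticed there, and no share of all genes is given beside these class counts. For Gm35082 the WT neutrophil value rested on 1 and 0 UMIs. In KO its lymphoid value rested on 6 and 1 UMIs and its neutrophil value on 5 and 1 (log2 interval -0.71 to 8.01). The male KO cells were above the Gm10260-negative cells in 3 of 3 classes for Hddc3 but in 2 of 3 for Gm35082, which had 0 UMIs in male and 5 in Gm10260-negative stem cells. Both genes lie on chromosome 7, which carried 10.3% of the 145 genes with a log2 difference of at least 0.5 between the female KO groups and 7.24% of the 9295 genes compared, while the highest share on another chromosome was 15.9%. Between the WT groups it carried 7.92% of 1098 such genes and 7.46% of the 10410 compared.

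AI506816 was divided in WT only. It had 92.2 CPM (90.1 to 94.4) in Rpl29-high WT cells and 29.5 (27.6 to 31.6) in Rpl29-low WT cells, whereas the 3 KO groups lay together at 34.5, 35.4 and 39.4 CPM. All KO groups were thus above the Rpl29-low and below the Rpl29-high WT cells. In the erythroid class the order was the same, with 97.0 and 29.6 CPM in the WT groups and 32.9, 38.5 and 41.7 in the KO groups. In the stem cell class it was not, since the Gm10260-positive cells (34.0 CPM) lay below the Rpl29-low cells (36.0 CPM). Against the Rpl29-low cells alone the KO library was higher in AI506816, by a log2 of 0.30, in place of -1.04 against all WT cells. For Hddc3 the same step gave 0.058 in place of 1.16, and for Gm35082 0.78 in place of 2.41. Compared in this way within the classes, AI506816 was lower in KO in only 2 of 9 classes and was higher in the erythroid class by a log2 of 0.34 (0.21 to 0.48). Hddc3 was higher in KO in 6 of 9 classes and lower in the stem cell class, by a log2 of -0.52 (-0.96 to -0.07). Gm3839 and Gm35082 were higher in KO in 8 of 9, and against the Rpl29-high cells each member had its direction in 9 of 9. No minimum number of cells was set for these counts, and only 3 classes had at least 20 cells in both WT groups. Rpl29-low cells were 18.2% of 22 WT hepatocytes, 17.9% of 28 macrophages, 34.6% of 26 megakaryocytes and 15.3% of 72 lymphoid cells. Most of the 9 class values therefore rest on few cells.

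Gm3839 was the only member whose KO groups all lay on 1 side of both WT groups. It stood at 6.20 and 4.86 CPM in the Rpl29-high and Rpl29-low WT cells and at 10.7, 10.4 and 10.8 CPM in the Gm10260-negative, Gm10260-positive and male KO cells. All 3 KO groups were above both WT groups for 10.3% of the 11277 genes compared, and below both for 6.48%. In the erythroid class the values were 5.84 and 4.48 CPM in WT and 10.6, 9.39 and 9.24 in KO. Gapdh itself was level, with 2363 CPM in WT, 2328 in KO and a log2 ratio of -0.02. Expressed per 1000 Gapdh UMIs, Gm3839 was 2.46 (2.27 to 2.66) in WT and 4.59 (4.32 to 4.88) in KO. This ratio was 2.51 and 2.32 in the 2 WT groups and 4.85, 4.34 and 4.6 in the 3 KO groups, with overlapping intervals within each genotype. Over the classes it ran from 1.21 to 3.25 in WT and from 2.17 to 5.85 in KO, with 1 to 3 UMIs of Gm3839 behind the WT values of megakaryocytes, macrophages, endothelium and hepatocytes. Whether reads of Gapdh account for it was not tested.

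**Figure D3:**
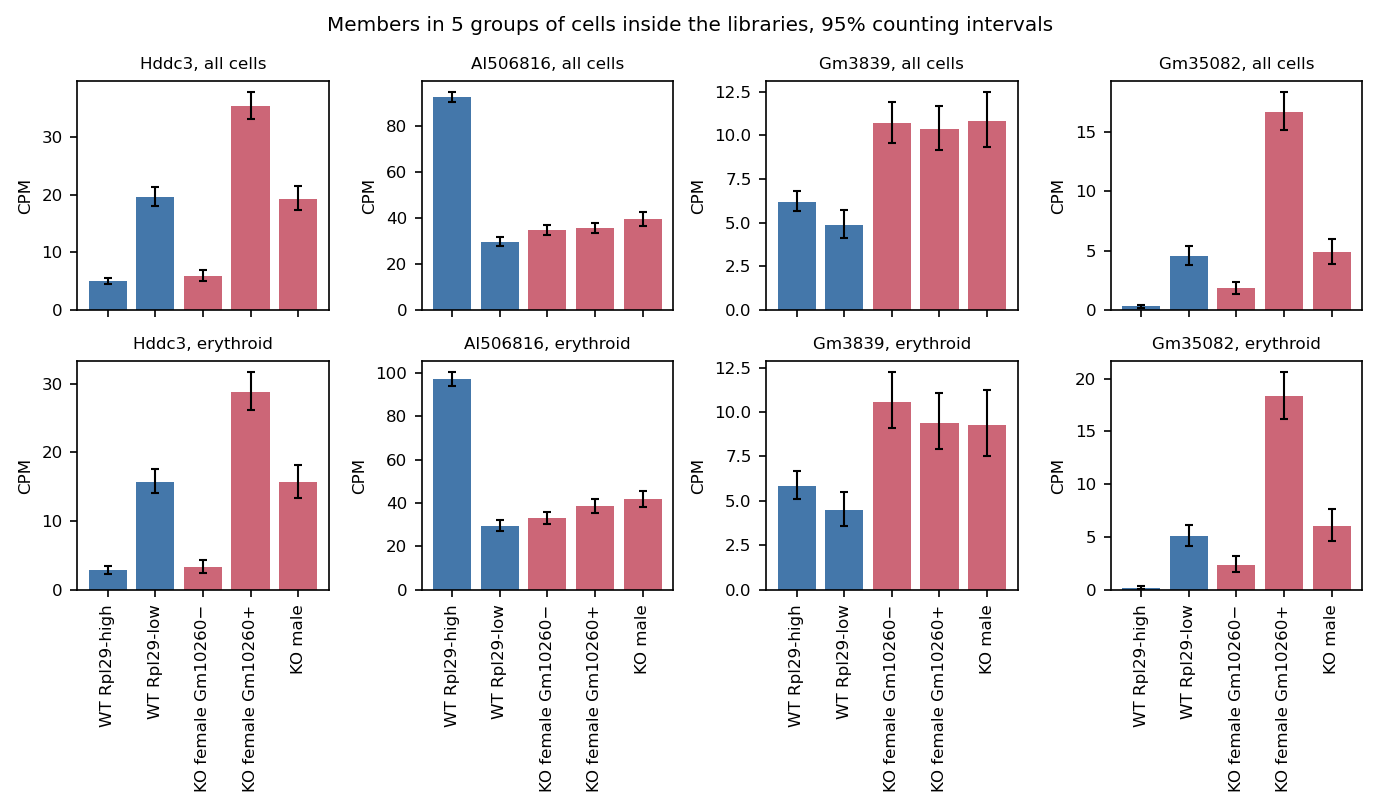
CPM (y axis, from 0) of each member in the 2 WT groups (blue) and 3 KO groups (red) of cells, over all cells (top) and in erythroid cells (bottom), with 95% Poisson counting intervals. Only for Gm3839 are the 3 KO bars (10.4 to 10.8 CPM over all cells) above both WT bars (4.86 and 6.20), and for AI506816 the Rpl29-high WT bar stands apart at 92.2 CPM.

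**Figure D4:**
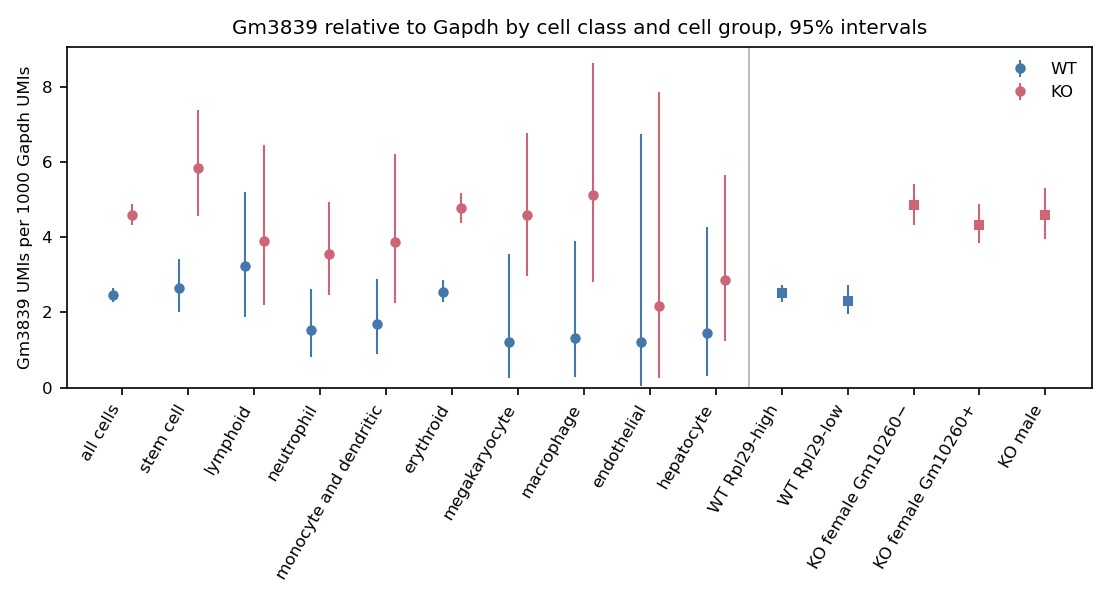
Gm3839 UMIs per 1000 Gapdh UMIs (y axis, from 0) for all cells and 9 classes of the WT (blue) and KO (red) libraries, left of the line, and for the 5 cell groups, right of it, with 95% Clopper-Pearson intervals. The groups of one genotype sit together, near 2.3 to 2.5 in WT and 4.3 to 4.9 in KO.

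Male and female cells were also compared within the KO library, where the genotype is the same. The log2 male/female was -0.10 (-0.27 to 0.08) for Hddc3, 0.16 (0.04 to 0.28) for AI506816, 0.06 (-0.18 to 0.29) for Gm3839 and -0.90 (-1.25 to -0.57) for Gm35082. For Hddc3 and Gm35082 the female value is a mean of unlike groups, 1 below and 1 above the male cells. Within the 5 groups, the remaining excess variation of Hddc3 fell to 0.15 in WT and 0.11 in KO, near the median over genes of 0.18 and 0.16. The genes that set the groups were noticed because they ran against Hddc3 and Gm35082. A fall for Hddc3 was therefore favoured by that choice, and nothing follows from it. The remaining excess variation of AI506816 was still 0.69 in WT and 0.47 in KO. That of Gm35082 was 5.14 in WT, where it had only 159 UMIs, and 0.95 in KO.

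Genes beside the members were also compared. The 3 nearest measured genes on each side of a member, 24 in all, had log2 KO/WT between -0.30 (Tomm7) and 0.41 (Furin), and 0 of them passed 0.5 in either direction, which 2.88% of all genes did upward and 0.981% downward. Measured genes near Gm3839 were sparse, and its 6 lay 118700 to 3107710 bases away. Man2a2, whose annotated span overlaps the end of Hddc3 on the other strand, had 0.02 (-0.13 to 0.16). Fes and Unc45a, beside Hddc3, had -0.01 and -0.02. Srpk2 and Pus7, which flank AI506816, had 0.06 and 0.07. Rab6a and Fam168a, which flank Gm35082, had 0.13 and 0.14.

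**Figure D5:**
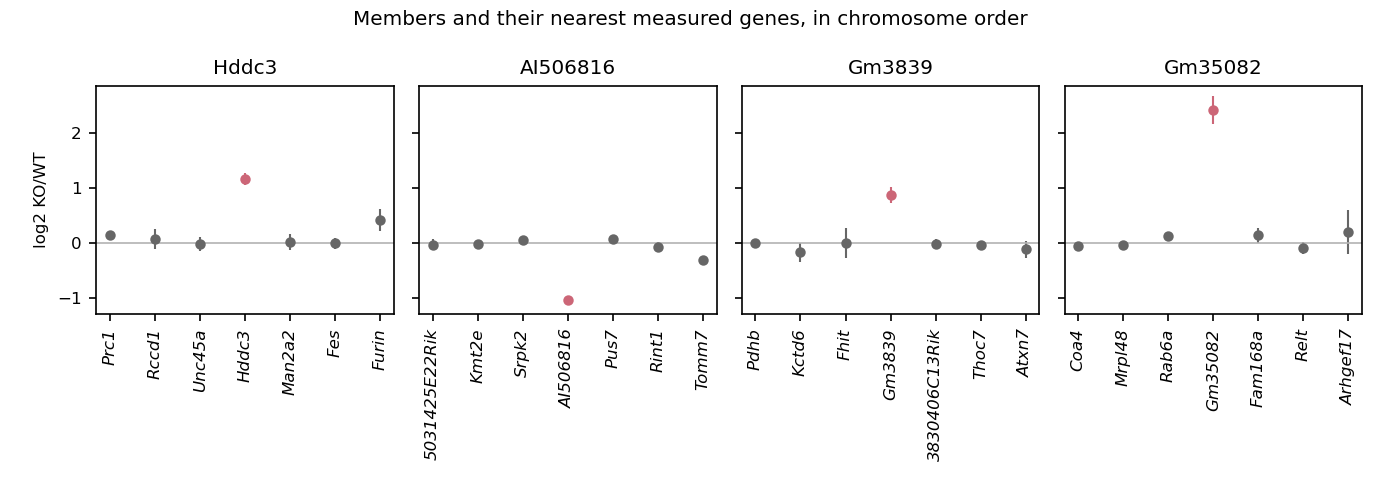
Log2 KO/WT over all kept cells (y axis) of each member (red) and of the 3 nearest measured genes on each side (grey), in chromosome order (x axis), with 95% counting intervals. The members lie between -1.04 and 2.41, and their 24 neighbours between -0.30 and 0.41.

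Enzymes that make, use or cleave NADP(H) were examined together with the HD-domain genes Hddc2 and Samhd1, because of the activity and the domain of the Hddc3 product. Of 14 genes on this list 13 had at least 200 UMIs, 0 of them passed a log2 of 0.5 in either direction, beside 2.88% of all genes upward and 0.981% downward, and their median log2 KO/WT was 0.06, beside 0.01 over all 11522 genes. Nadk, which makes NADP from NAD, had 39.8 CPM in WT and 41.6 in KO, with a log2 ratio of 0.06 (0.00 to 0.12). G6pdx and Pgd, the NADPH-producing dehydrogenases of the pentose phosphate pathway, had 0.09 and -0.05. The lowest value was that of Hddc2 (-0.14), another HD-domain gene, and the highest that of Mthfd2 (0.16), a mitochondrial enzyme of folate metabolism. Me1, an NADP-dependent malic enzyme, had too few UMIs to be counted (65 in WT and 85 in KO), with a log2 ratio of 0.52 (0.03 to 1.00).

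Over the 18 sums of 9 classes and 2 libraries, the genes whose log2(CPM + 1) ran most like Hddc3 were Kdm5d, Ddx3y and Eif2s3y (Pearson r of 0.91, 0.89 and 0.86). These genes are Y-linked, and male cells were 17.4% of the KO and 0.116% of the WT library. Gm35082 was nearest to Kdm5d and Eif2s3y (0.84 and 0.83), AI506816 to Gm47283 and Hmga1 (0.92 and 0.89) and Gm3839 to Cmtr1 and Tctn1 (0.81 and 0.78). Points of the same library share its pool of embryos and its depth, and these correlations are descriptions. Hddc3 and Gm35082 were picked as higher in KO in every class, so their correlation with genes nearly absent from WT was raised by that choice. Within the KO library, the log2 male/female was -0.10 (-0.27 to 0.08) for Hddc3 and -0.90 (-1.25 to -0.57) for Gm35082. By the KO/WT profile over the 9 classes, Rnaset2a was nearest to Hddc3, with a root mean square difference of 0.47 on the log2 scale. The other members had too few UMIs in some class for this measure.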

How the data were processed

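Cells of the fetal liver were profiled by droplet 3′ single-cell RNA sequencing in 1 library per genotype. The authors aligned the reads of each library separately to GRCm38 (mm10) with Cell Ranger (version 6.0.0, default parameters) and deposited the resulting UMI counts of each gene and barcode, 109122324 UMIs in 3840 WT barcodes and 100029143 in 4928 KO barcodes. Barcodes were kept if 1000 or more genes were detected and mitochondrial UMIs did not exceed 20% (Python 3.11.15, numpy 2.4.6, scanpy 1.11.5). Doublets were kept (Scrublet called 3.90% of WT and 5.80% of KO cells), and cells that met more than 1 class were left out of the classes.

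A class required a minimum number of detected markers (stem cell 4 of 8, lymphoid 3 of 8, neutrophil 5 of 11, monocyte and dendritic 3 of 6, erythroid 5 of 10, megakaryocyte 4 of 8, macrophage 5 of 9, endothelial 4 of 8, hepatocyte 7 of 8), and macrophages took precedence over monocyte and dendritic cells. These minimums and the cell groups were set after the data had been seen. The members and gene lists were chosen with earlier results of these data known. The genes named are the members, Nfkbia, the sex genes, the nearest 3 measured genes on each side, the NADP(H) and comparison lists and the genes most like each member.

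UMIs were summed over cells and scaled to CPM, with exact Poisson intervals. Log2 ratios have exact conditional (Clopper-Pearson) intervals, and shares exact Clopper-Pearson intervals, at 95%. They cover counting error only, and PCR copies are removed by the UMIs. A level of 0 UMIs was set to 3 UMIs for a comparison value, which carries no counting error. Cells are not replicates, and with 1 library per genotype no test was made. The calculations were tested on simulated data. Positions and transcripts came from GENCODE vM21 (GRCm38), in which 32235 gene IDs were found. Transcripts were aligned with blastn 2.17.0. Nnt has 2 overlapping entries, of which the first was used. The alternatives were other cell filters, gates, clusters, scalings, sexes and depths. The mast and stromal classes had too few cells (18 and 22, and 1 and 1) and were not described.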

Additional observations from a re-analysis of the deposited data

How the results depend on the processing

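No paired analysis was possible because only 1 library represents each genotype. Over all kept cells the log2 KO/WT of each member kept its sign under other cell filters, scalings, sexes and depths. It left the counting interval for AI506816 with at least 3000 detected genes (-0.98) and for Hddc3 when CPM was taken per cell and averaged (1.03). The division into cell groups, added after the data had been seen, moved it most. With equal weight per group it was 0.72 for Hddc3, -0.74 for AI506816 and 1.69 for Gm35082. Against the Rpl29-low WT cells alone it was 0.058 for Hddc3, 0.30 for AI506816 (a reversal), 1.14 for Gm3839 and 0.78 for Gm35082, and against the Rpl29-high WT cells alone 2.03, -1.34 and 4.71 for Hddc3, AI506816 and Gm35082. Without the Gm10260-negative female KO cells it was 1.55 for Hddc3 and 2.83 for Gm35082, and without the Gm10260-positive ones 0.70 and 1.61. Gm3839 stayed within its interval under each of these except the comparison with the Rpl29-low cells.

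In the classes too, the comparison with the Rpl29-low WT cells alone moved most. AI506816 then kept its direction in 2 of 9 classes and Hddc3 in 6, with no minimum number of Rpl29-low cells in a class. The log2 KO/WT of AI506816 was 0.12 (-0.31 to 0.56) in stem, 0.39 (-0.13 to 0.95) in neutrophil and 0.097 (-0.96 to 1.32) in megakaryocyte cells. It was 1.46 (0.17 to 3.13) in lymphoid cells, with 77 UMIs in all, and 0.34 (0.21 to 0.48) in erythroid cells. That of Hddc3 was -0.52 (-0.96 to -0.07) in stem and -0.64 (-1.61 to 0.38) in monocyte and dendritic cells. All of these were reversals of sign. Only the lymphoid and erythroid values of AI506816 and the stem cell value of Hddc3 had intervals that excluded 0. Of 152 class values under the cell-group alternatives 14 had the opposite sign. Under each other alternative, and with a KO group left out, each member kept its direction in 8 or 9 of 9 classes, or in 6 or 7 of the 7 that unsupervised clusters gave. Of 343 class values under the alternatives without cell groups 5 had the opposite sign, all of AI506816 in endothelium or Gm3839 in endothelium or lymphoid cells, with intervals that included 0. The share of genes higher in KO in every class was 2.11% with clusters and 1.80% with at least 50 UMIs per class, where the share lower was 2.72%. With at least 3 sex-gene UMIs the log2 male/female in KO was 0.34 for AI506816 and -0.44 for Gm35082. Thinned to 5000 UMIs, 4.79% of WT and 9.52% of KO cells had a UMI of Hddc3, 23.6% and 13.6% of AI506816, 2.82% and 4.54% of Gm3839, and 0.617% and 3.78% of Gm35082. Without thinning the shares were 21.7% and 30.4%, 60.4% and 42.4%, 15.5% and 19.6%, and 3.04% and 12.7%, in the same order. The cause of these changes was not tested, except that shares rise with depth by construction. Classes of few cells limit most of the values: the endothelial and hepatocyte classes held 22 to 50 cells per library.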

Other observations

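The cell groups were also compared for other genes that an earlier analysis of these data had named as shifted in several classes. These genes were chosen with those results known. Hist1h2ad, a replication-dependent histone gene, had all KO groups (11.6 to 13.1 CPM) below both WT groups (23.8 and 28.4 CPM). The same held for Dynlt1a, a dynein light chain gene with near-identical copies, at 15.1 and 18.2 CPM in WT and 11.5, 8.0 and 1.5 in the Gm10260-negative, Gm10260-positive and male KO cells, and for Smim6, at 6.59 and 4.89 CPM in WT and 2.31 to 4.62 in KO. All 3 KO groups were below both WT groups for 6.48% of the 11277 genes compared. The groups overlapped for the other 3 named genes. Gm12166 stood at 6.12 and 1.45 CPM in the Rpl29-high and Rpl29-low WT cells and at 2.01, 15.0 and 27.9 in the KO groups. Lbp, the lipopolysaccharide-binding protein gene, stood at 42.9 and 20.5 CPM in WT and at 23.9, 13.4 and 12.6 in KO, and Rps6ka1, a ribosomal S6 kinase gene, at 42.9 and 29.0 CPM in WT and at 27.5, 34.1 and 23.3 in KO.

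The groups differed in cell classes as well: 39.9% of Rpl29-high and 59.9% of Rpl29-low WT cells were erythroid, and 50.9% to 58.7% of the 3 KO groups. Rps18, of which Gm10260 is a copy, was at 5874 CPM in the Gm10260-negative and 4652 CPM in the Gm10260-positive female KO cells, groups that were set by Gm10260 itself. Nfkbia was at 11.3 CPM in Rpl29-high and 19.2 in Rpl29-low WT cells. Of its 7 UMIs in KO, 5 lay in Gm10260-positive female cells, which were 25.9% of the KO cells, and so few UMIs do not set a group apart.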
